A study of Rattus norvegicus with 30 samples.

Results

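The first 2740 bases of the rat mitochondrial chromosome (chrM:1-2740, rn5) hold the genes of the 12S and 16S ribosomal RNAs with neighbouring tRNA genes. All cytosines called in this segment in the medial prefrontal cortex (mPFC) were taken, whatever their methylation, and the 3 sequence contexts were kept apart. A CpG is a cytosine followed by guanine, and in CHG and CHH contexts H stands for any base but guanine. Among the sites called for age, the segment held 118 CpG, 116 CHG and 746 CHH sites, 980 of 1059667 sites in the genome. In the separate calls for aged impaired (AI) against aged unimpaired (AU) rats it held 118 CpG, 116 CHG and 744 CHH sites. The rest of the mitochondrial genome, used for comparison, held 436 CpG, 564 CHG and 3331 CHH sites in the calls for age. The sites are given by position only, since no rn5 sequence or annotation of this chromosome was used here, and the boundaries of the single rRNA and tRNA genes were therefore not drawn.

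Genomic DNA of 30 male Fischer 344 rats, 10 of them young (5 to 6 months) and 20 aged (17 to 22 months), was bisulfite converted and sequenced across the genome. All rats had been trained and tested on an operant set shifting task, a test of cognitive flexibility, and the aged rats were divided at the mean of their trials to criterion into 9 AI and 11 AU rats. AI and AU rats are therefore the aged rats that needed more and fewer trials, and the tissue, prelimbic and infralimbic mPFC, is a mixture of neurons, glia and vascular cells. Each value is a methylation ratio, the share of reads at a cytosine that read as methylated, from 0 to 1. A rat has a ratio only where at least 5 reads covered the site, and the number of reads is not given, so that a ratio at the minimum moves in steps of 0.2. The rat identifiers fall into 3 number series, here called A (14 rats, 11 of them aged), B (11 rats, 8 aged) and C (5 rats, 1 aged), whose origin the labels do not give.

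Mitochondrial DNA is a small circular genome present in many copies per cell, and its rRNA genes, transcribed as the start of a long polycistronic transcript, supply the RNA core of the mitochondrial ribosome. Bisulfite turns unmethylated cytosine into uracil, which is read as thymine, so that methylated and unconverted cytosines are read alike. Cytosine methylation of mammalian mitochondrial DNA is usually low where it is found at all, and how much of it is real is debated.

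The segment was lowly methylated in every context, with a long tail of sites at higher ratios. Over sites, the mean ratio of a CpG across the rats had a median of 0.0368 and reached 0.304, that of a CHG had a median of 0.0416 and reached 0.422, and that of a CHH had a median of 0.0263 and reached 0.619. A mean ratio under 0.05 was found at 73 of 118 CpG, 75 of 116 CHG and 566 of 746 CHH sites. A mean ratio over 0.2 was found at 14 CpG, 7 CHG and 22 CHH sites, and 4 CHH sites read 0 in every rat that had a value. Thus most cytosines of the segment read nearly unmethylated, and the level of the segment was set to a large degree by a minority of sites.

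Rats varied more than groups did. The mean CpG ratio of the segment ran from 0.0404 over a median of 0.0732 to 0.209 in the 10 young rats, and from 0.0284 over a median of 0.0578 to 0.206 in the 20 aged rats. For CHG the young rats ran from 0.0370 over 0.0594 to 0.164 and the aged rats from 0.0306 over 0.0523 to 0.144. For CHH the young rats ran from 0.0255 over 0.0482 to 0.133 and the aged rats from 0.0183 over 0.0349 to 0.128. In each context 19 of the 20 aged rats lay within the range of the young rats and 1 lay below it, so the age groups overlapped nearly whole.

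**Figure D1:**
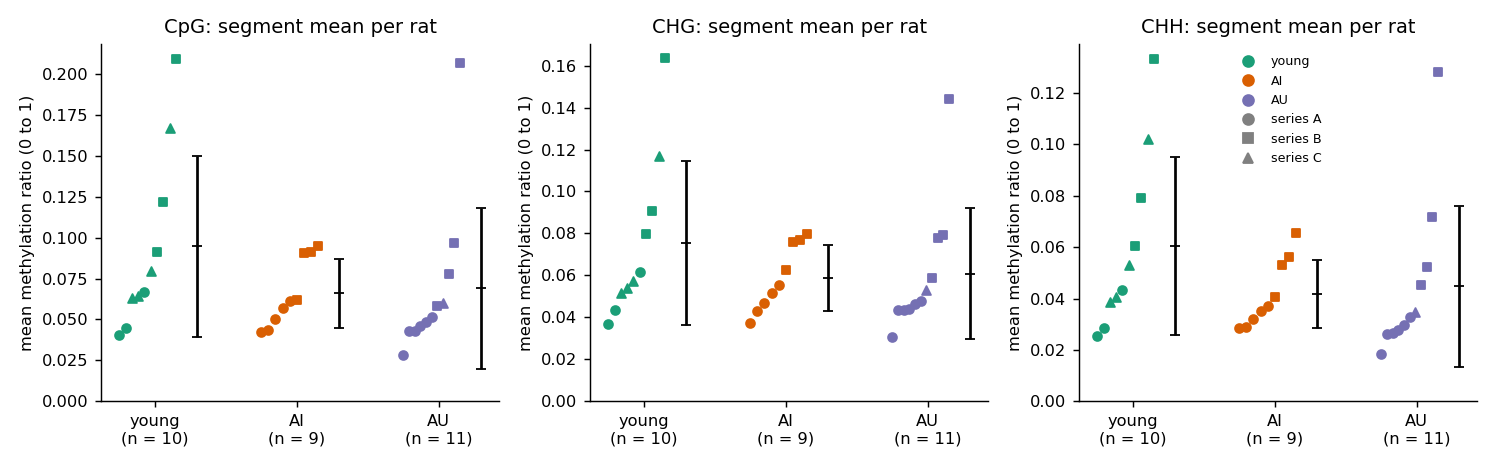
Mean methylation ratio of the segment in each rat (y axis, 0 to 1) for CpG, CHG and CHH sites in young, AI and AU rats, with the number series as marker shape and the mean ± SD of each group at its right. The ratios of all rats come from the calls for age. The highest CpG means, 0.209 in a young rat and 0.206 in an AU rat, both belong to series B, and the rats of series A lie between 0.0284 and 0.0665.

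The 3 contexts followed each other. In all 30 rats the segment mean was higher for CpG than for CHH and higher for CHG than for CHH, by 0.0275 ± 0.0172 and 0.0160 ± 0.00567 (mean ± SD, n = 30). The CpG mean was above the CHG mean in 24 of the 30 rats, with a difference of 0.0115 ± 0.0162 (SD, n = 30) that was smaller than its spread. The same 4 rats held the 4 highest means in all 3 contexts. The mean autosomal CHH ratio of a rat, in which true non-CG methylation and incomplete conversion are read alike, stayed between 0.0152 and 0.0174 in the 30 rats. The CHH mean of the segment was above the autosomal CHH mean of the same rat in all 30 rats, with an excess between 0.00118 and 0.117.

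The number of sites with a value differed between rats and moved with the segment mean. The 14 rats of series A had values at 117 to 118 CpG member sites, with a mean CpG ratio of 0.0476 ± 0.00951 (SD). The 11 rats of series B had 92 to 118 sites and a mean of 0.109 ± 0.0516, and the 5 rats of series C had 85 to 117 sites and a mean of 0.0867 ± 0.0454. Under 100 CpG member sites were measured in 5 rats (3 young, 1 AI and 1 AU), 4 of them in series B and 1 in series C. Their CpG means lay between 0.0951 and 0.209, while the other 25 rats lay between 0.0284 and 0.0968.

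The higher means were also found over the sites measured in every rat. Over the 79 CpG sites with a value in all 30 rats, the rats that had the 4 highest means kept values of 0.212, 0.205, 0.170 and 0.113, against a median of 0.0740 over all rats. Complete sites made up 66.9% of the CpG, 60.3% of the CHG and 57.6% of the CHH members. Read depth per rat at these sites is unknown, and its part in the higher means was not tested.

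Within series B, rats with fewer member sites had higher means. The correlation over its 11 rats was r = -0.745 (permutation p = 0.00375) and rho = -0.753 (permutation p = 0.0104) for CpG, and r = -0.776 (permutation p = 0.00196) and rho = -0.764 (permutation p = 0.00855) for CHH. After Benjamini-Hochberg adjustment over the 12 relations computed, these permutation p-values were 0.0161 and 0.0418 for CpG and the same for CHH. Without the 2 rats farthest from the median number of sites, r was -0.722 for CpG and -0.737 for CHH. For CHG in series B, r was -0.720 (adjusted permutation p = 0.0161), while rho was -0.560 with an adjusted permutation p of 0.153. Within the 14 rats of series A, where the number of member sites hardly varied, r for CpG was -0.332 (permutation p = 0.248) and no relation passed. With the number of sites over all chromosomes in place of member sites, r in series B was -0.625 for CpG (adjusted permutation p = 0.0590), -0.621 for CHG (0.0490) and -0.707 for CHH (0.0161). By rank, rho was -0.700 for CpG (adjusted permutation p = 0.0613), -0.591 for CHG (0.144) and -0.773 for CHH (0.0418), so that the CHG relation passed by r alone. For the 5 rats of series C no correlation is given. The rat with the fewest CpG member sites there, 85, had a mean of 0.167, and the other rats, with 103 to 117 sites, had means from 0.0599 to 0.0798.

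**Figure D2:**
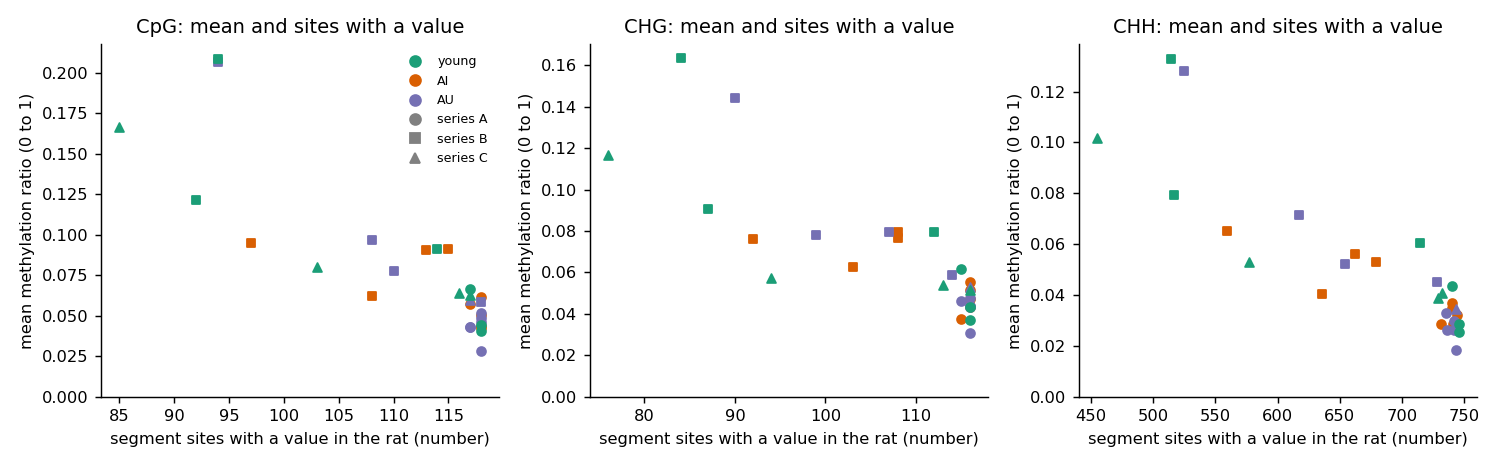
Mean methylation ratio of the segment (y axis, 0 to 1) against the number of segment sites with a value (x axis) in each of the 30 rats, by context, with colour for the group and marker shape for the number series. Rats with the most sites cluster at low ratios, and the 5 rats with under 100 CpG sites, between 0.0951 and 0.209, hold the highest CpG means except for 1 AU rat at 0.0968.

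The segment was compared with the rest of the mitochondrial genome in the same rats, so that both come from the same libraries. The segment as a whole was hypomethylated against the rest in all 30 rats for CpG, with a mean of 0.0766 ± 0.0455 against 0.125 ± 0.0509 (SD, n = 30). This did not hold along its whole length. The CpG mean was 0.131 ± 0.0821 over the first 822 bases, not below the rest, and 0.0432 ± 0.0285 from base 1371 on. The mean difference was -0.0480 ± 0.0177 (SD) for CpG, -0.0490 ± 0.0185 for CHG and -0.0205 ± 0.00965 for CHH, each negative in 30 of 30 rats. A 2-sided permutation test flipping signs within rats gave p = 1e-05 in each context, the smallest that 100000 resamples can give. The CpG difference lay between -0.0868 and -0.00860, and was narrowest in the young rat of series C with 85 member sites. For CHH the difference depends on how sites are averaged. With the median over sites in place of the mean it was -0.00455, with 12 rats below 0 and 18 above and a permutation p of 0.0870, so that it did not hold for the median site. Over sites measured in every rat the CHH difference was larger, -0.0473, and again negative in 30 rats.

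**Figure D3:**
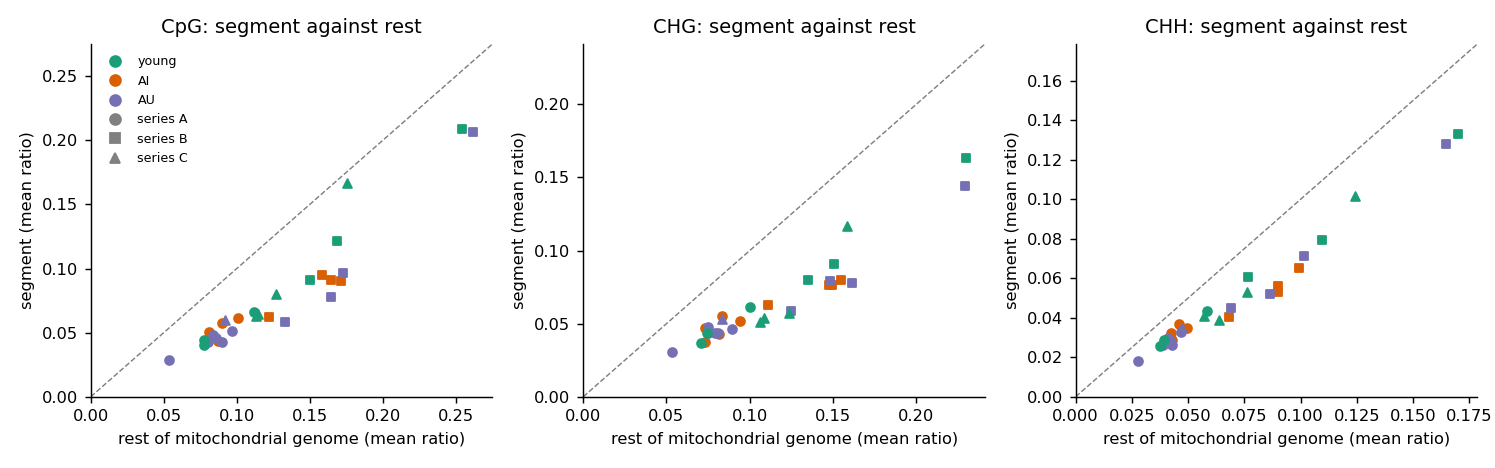
Mean methylation ratio of the segment (y axis) against that of the rest of the mitochondrial genome (x axis) in each of the 30 rats, by context, with the dashed line marking equal values. All points lie below the line, by 0.0480 on average for CpG, 0.0490 for CHG and 0.0205 for CHH.

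Ratios were unevenly spread along the segment, as seen in 10 windows of 274 bases. For CpG the mean over rats was 0.108 in window 1, 0.145 in window 2 and 0.125 in window 3, but 0.0444 in window 8, 0.0351 in window 9 and 0.0394 in window 10. CHH ran the same way, from 0.0880, 0.0804 and 0.0806 in windows 1 to 3 to 0.0272, 0.0272 and 0.0361 in windows 8 to 10. CHG had 0.106, 0.139 and 0.103 in windows 1 to 3 and 0.0353, 0.0266 and 0.0669 in windows 8 to 10. The first 822 bases were thus higher than the last 5 windows of the segment. Windows 1 to 3 had a mean of 0.131 ± 0.0821 (SD, n = 30 rats) against 0.0432 ± 0.0285 in windows 6 to 10 for CpG, 0.113 ± 0.0624 against 0.0469 ± 0.0197 for CHG, and 0.0826 ± 0.0525 against 0.0322 ± 0.0184 for CHH. In each context all 30 rats were higher in windows 1 to 3, a split of the segment chosen after the profile was seen and therefore given with no test.

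Sites of higher ratio followed the same layout. Of the 25 CpGs with a mean ratio over 0.1, 19 lay in windows 1 to 3, which held 42 of the 118 CpGs, and of the 85 such CHH sites, 59 lay there among 224 of 746. All 14 CpGs over 0.2 lay in windows 1 to 5 and 12 of them in windows 1 to 3. Window 5, with 6 CpGs, stood out from its neighbours at 0.110 for CpG.

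**Figure D4:**
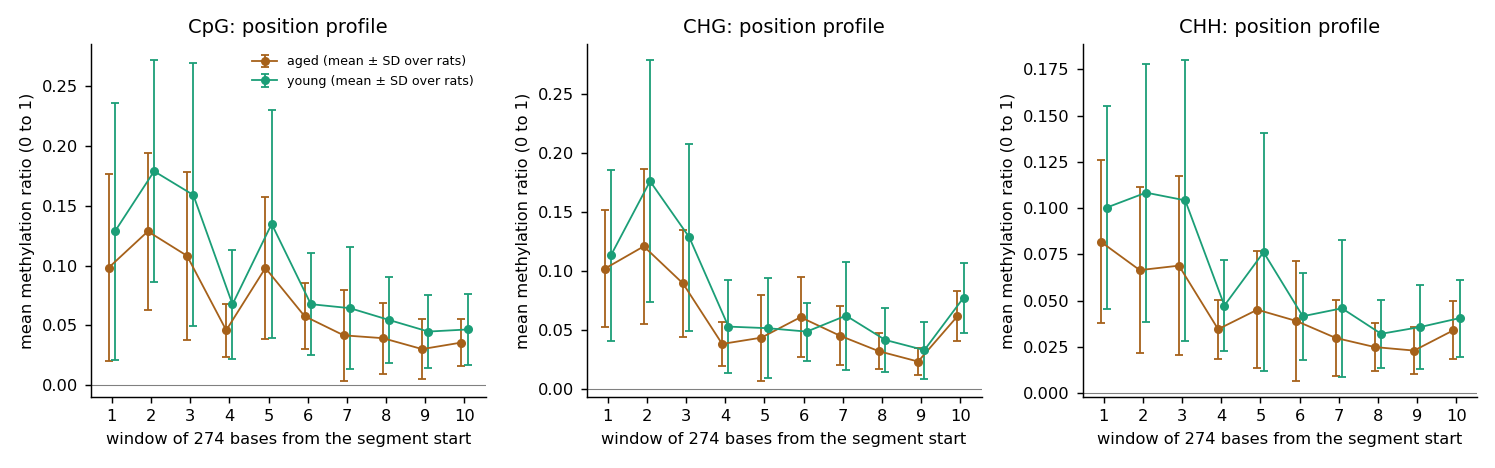
Mean methylation ratio (y axis) in 10 windows of 274 bases from the segment start (x axis) for aged and young rats, as mean ± SD over rats, by context. CpG and CHH ratios fall from windows 1 to 3 to windows 8 to 10 in both age groups, and the error bars of the age groups overlap in every window.

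The layout was shared by the rats. Across the 79 complete CpG sites, Pearson's r between the ratios of a pair of rats had a median of 0.867 over 435 pairs and was 0.596 at the lowest. The medians were 0.871 over 70 CHG sites and 0.790 over 430 CHH sites, with lowest values of 0.635 and 0.565. These are correlations across sites, which lie on the same reads and are not independent.

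The highest CpGs were named by their level, the 5 with the highest mean among those with values in at least 15 rats. CpG 318 had the highest mean, 0.304 ± 0.102 (SD, n = 30), with the lowest rat at 0.130, the median at 0.293 and the highest at 0.579. CpG 350 had 0.285 ± 0.0735 (SD, n = 30), from 0.187 over 0.266 to 0.461, and CpG 353 had 0.271 ± 0.0691, from 0.181 over 0.255 to 0.461. These 3 sites lie close together in window 2, and no rat read under 0.130 at any of them. CpG 1341 had 0.279 ± 0.163 (SD, n = 30), from 0.0634 over 0.201 to 0.7, and CpG 770 had 0.275 ± 0.232, from 0.0705 over 0.176 to 0.857. At these last sites the mean lay well above the median. Series B had higher means than series A in both age groups at all 5 named CpGs. CpG 1341 had a mean of 0.173 in the aged and 0.160 in the young rats of series A, and of 0.353 and 0.470 in those of series B. CpG 770 had 0.142 and 0.135 in series A, and 0.363 and 0.503 in series B.

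The highest CHG and CHH sites reached further than any CpG. CHG 2504 had 0.422 ± 0.0666 (SD, n = 30), from 0.2 over 0.450 to 0.489, and was the only CHG over 0.2 outside windows 1 to 5. CHG 83 had 0.398 ± 0.104 (SD, n = 25), from 0.231 over 0.391 to 0.625. The neighbouring CHH 84 was the highest site of the segment with 0.619 ± 0.196 (SD, n = 25), from 0.333 over 0.6 to 1. Both sites lacked a value in 5 rats, so the pair at 83 and 84 was read in part of the animals only. CHG 351, between CpG 350 and CpG 353, had 0.276 ± 0.0727 (SD, n = 30), CHG 695 had 0.268 ± 0.0758 and CHG 319, next to CpG 318, had 0.265 ± 0.0839. CHH 210 had 0.314 ± 0.146 (SD, n = 30), CHH 1343 had 0.269 ± 0.133, CHH 215 had 0.269 ± 0.179 and CHH 362 had 0.262 ± 0.0628. At each of these CHG and CHH sites the series B means of both age groups were above those of series A. CHH 84 had 0.497 in the aged and 0.538 in the young rats of series A, and 0.724 and 0.833 in those of series B. Of the 15 sites named by level, 10 lay in short runs of more than 1 context, at 83 to 84, 318 to 362 and 1341 to 1343, while CpG 770, CHG 695, CHG 2504, CHH 210 and CHH 215 lay outside them.

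None of these 15 high sites differed between aged and young rats after adjustment over all sites of its context. At CpG 318 the aged rats ran from 0.130 over 0.251 to 0.556 and the young rats from 0.2 over 0.303 to 0.579, a difference of -0.0315 (permutation p = 0.433, adjusted p = 0.953 in the test of all sites). Within the number series the CpG 318 means of aged and young rats were closer, 0.224 and 0.245 in series A and 0.383 and 0.402 in series B. At CHH 84 the aged rats had 0.575 ± 0.177 (SD, n = 17) and the young rats 0.714 ± 0.212 (n = 8), with a permutation p of 0.103 and an adjusted p of 0.6. At CHG 2504 the aged rats, from 0.2 over 0.428 to 0.489, and the young rats, from 0.387 over 0.466 to 0.485, overlapped, and the difference of -0.0444 had a permutation p of 0.0613 and an adjusted p of 0.641 over all sites, while its unadjusted p in the test of all sites was 0.0307. In series A, CHG 2504 had 0.368 in aged and 0.410 in young rats, and in series B 0.458 and 0.468.

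A CpG on 1 strand faces a CpG on the other, so that each CpG gives a pair of cytosines at neighbouring positions, and some CHG sites (CAG and CTG) give a pair that lies 2 bases apart. All 118 CpG sites formed 59 such pairs and 80 CHG sites formed 40 pairs, while 6 CHG sites in longer runs were left out and 30 had no CHG partner at that distance. In the CpG pairs the cytosine at the higher position, here called downstream, had a mean of 0.0979 ± 0.0337 (SD, n = 30 rats) and the upstream cytosine 0.0457 ± 0.0421. The downstream mean was higher in 29 of 30 rats and in 44 of 59 pairs. In the CHG pairs the means were 0.0765 ± 0.0244 downstream and 0.0411 ± 0.0224 upstream, higher downstream in 29 of 30 rats and 25 of 40 pairs. The rest of the mitochondrial genome ran the same way, with 0.145 ± 0.0461 downstream and 0.0476 ± 0.0261 upstream over 192 CpG pairs. Under the usual reading of such a list the downstream cytosine lies on the strand opposite to the reference, but the strand is not written in the files.

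Single pairs showed how far the partners stood apart. CpG 349 had a mean of 0.0207 ± 0.0408 (SD, n = 25) where its partner CpG 350 had 0.268 ± 0.0534 in the same rats. CpG 1340 had 0.00914 ± 0.00801 (SD, n = 30) and CpG 1341 0.279 ± 0.163. The downstream cytosine was higher in every rat with both values, 25 of 25 and 30 of 30. CHG 81 had 0.0501 ± 0.0562 (SD, n = 25) and CHG 83 0.398 ± 0.104. The pair at CpG 770 ran the other way, with 0.275 ± 0.232 upstream and 0.0370 ± 0.0270 at 771, and the upstream cytosine was higher in all 30 rats. Of the 14 CpGs with a mean over 0.2, 13 were downstream partners and CpG 770 was the exception.

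The gap between partners lay mainly in windows 1 to 5. There, 24 of 28 CpG pairs were higher downstream, with means of 0.152 and 0.0425 over pairs, and in windows 6 to 10, 20 of 31 were, with 0.0446 and 0.0352. For CHG the means were 0.116 and 0.0396 over 17 pairs in windows 1 to 5, and 0.0407 and 0.0370 over 23 pairs in windows 6 to 10. Coverage moved with it: 53 of 59 downstream CpGs but 26 of 59 upstream CpGs had a value in every rat, and for CHG 35 and 11 of 40. In the 23 CpG pairs with both values in every rat the means were 0.0808 downstream and 0.0451 upstream, and 16 were higher downstream. In the 7 such CHG pairs they were 0.0329 and 0.0278, and 4 were higher downstream. The part of coverage in the gap was not tested. The gap over CpG pairs was 0.0559 ± 0.0232 (SD, n = 20) in aged and 0.0448 ± 0.0168 (n = 10) in young rats, a difference smaller than either SD.

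**Figure D5:**
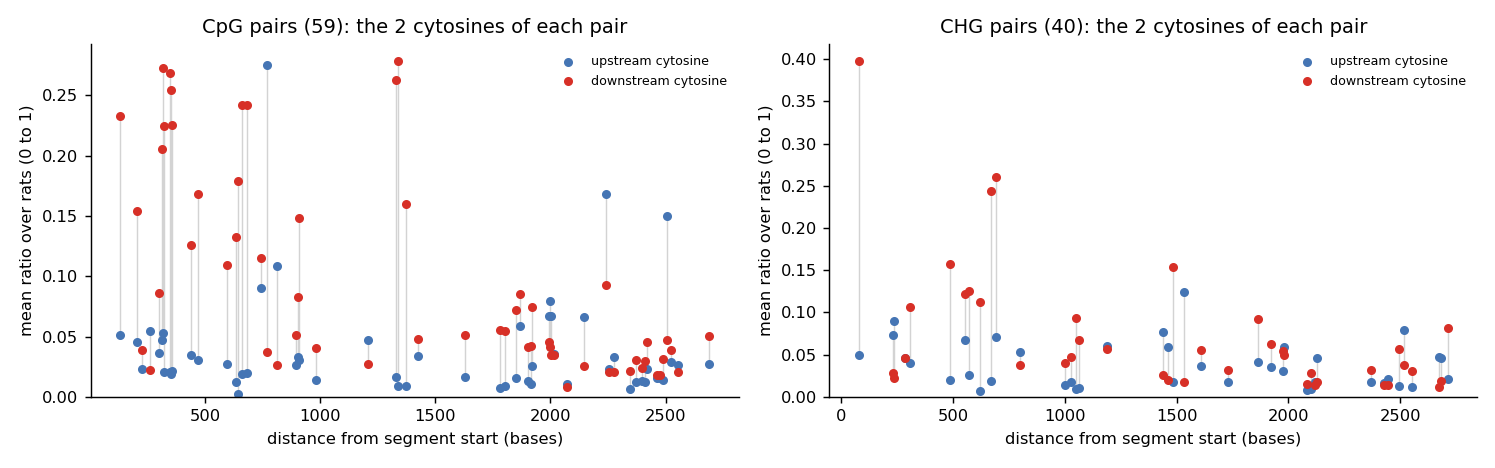
Mean methylation ratio over rats (y axis) of the upstream and downstream cytosine of each CpG pair (59) and CHG pair (40), against distance from the segment start in bases (x axis), with a grey line joining partners. Downstream cytosines reach 0.279 for CpG and 0.398 for CHG in windows 1 to 5, while most upstream partners there lie under 0.1.

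Aged rats were compared with young rats to ask whether the segment changes with age. The aged mean was the lower one in each context, but the difference did not pass the test. For CpG the mean over the rats was 0.0676 ± 0.0382 (SD, n = 20) in aged and 0.0946 ± 0.0551 (n = 10) in young rats. With each ratio taken relative to the mean of its site, the difference was -0.0242 (SE 0.0158, 95% interval -0.0563 to 0.00800), with a limma adjusted p of 0.843 over 4817 bins of the segment's length across the genome, of which 0% were called. For CHG it was -0.0133 (SE 0.0105, interval -0.0348 to 0.00821, limma adjusted p = 0.888), where 19 of 14937 bins (0.127%) were called. For CHH it was -0.0152 (SE 0.00966, interval -0.0350 to 0.00448, limma adjusted p = 0.860), where 34 of 23876 bins (0.142%) were called. At an unadjusted p under 0.05 by limma, 5.83% of the CpG bins passed, and the segment, at 0.136, was not among them.

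The difference was smaller without the rats with few sites. These rats held the 4 highest CpG means and the mean at rank 6, and 3 of them were young and 2 aged. Leaving them out thus lowers the young mean more, and the part of the number of sites was not tested. Without the 5 rats that had under 100 CpG member sites, 18 aged and 7 young rats were left, and the CpG difference was -0.00553 (SE 0.00982, interval -0.0257 to 0.0146, limma adjusted p = 0.975). The CpG means were then 0.0584 ± 0.0191 (SD) and 0.0642 ± 0.0179. The CHG difference became -0.000639 and the CHH difference -0.00421, with limma adjusted p-values of 0.997 and 0.916. This alternative was chosen after the data had been seen. Within series A, the CpG mean was 0.0468 in 11 aged and 0.0505 in 3 young rats. The corresponding CpG means were 0.0972 (8 aged) and 0.140 (3 young) within series B, and 0.0599 (1 aged) and 0.0934 (4 young) within series C. Both young means include a single high rat, at 0.209 in series B and 0.167 in series C, where the young median was 0.0720. The gaps within these series without that rat were not tested. The age difference was not shown to differ between series B and A (limma interaction over all bins -0.0351, SE 0.0299, adjusted p = 0.871).

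The size of the difference varied along the segment. The aged mean was lower in 10 of 10 windows for CpG, by 0.01 to 0.0509, and in 10 of 10 for CHH, while for CHG it was lower in 9 of 10 windows and higher by 0.0122 in window 6. Across CpG sites the aged and young means had r = 0.954.

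At the level of single sites, few members passed the study's unadjusted threshold of p under 0.05 in a test of every site that allows unequal variances, and none passed after Benjamini-Hochberg adjustment over all sites tested. For CpG, 2 of 118 members passed, where 6.19% of all 84624 CpGs tested did. For CHG, 2 of 116 passed, against 3.01% of all CHG sites. For CHH, 23 of 742 members with spread passed, 3.10%, against 2.31% of all CHH sites. Of these, 9 were hypermethylated in aged rats, where 1.99% of all CHH sites were, and 14 were hypomethylated, where 0.32% were. The balance depends on the rats with few sites: without the 5 rats under 100 CpG member sites, 26 CHH members passed (3.50%, where 2.45% of all CHH sites did), 20 hypermethylated and 6 hypomethylated in aged rats, where 2.13% and 0.314% of all CHH sites were. With limma in place of that test, 64 CHH members (1 higher, 63 lower in aged rats) and 8 CHG members (all lower) had an unadjusted p under 0.05, against 3.37% of all CHH and 3.69% of all CHG sites, and again none passed after adjustment. The direction over all sites turned with the test: by limma 0.47% of all CHH sites were higher and 2.9% lower in aged rats, and of all CHG sites 0.648% were higher and 3.04% lower. Nothing is read here from the direction of the members.

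Most members had the lower mean in aged rats irrespective of any test. The aged mean was lower at 103 of 118 CpG, 78 of 116 CHG and 518 of 742 CHH sites, with a median difference of -0.0139, -0.00867 and -0.00703. The median over all sites tested was -0.000947, 0.00430 and 0.00450. Without the 5 rats with few sites the aged mean was lower at 72 CpG, 53 CHG and 461 CHH sites. The sites share rats and reads, and the count does not measure separate events.

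The member sites with the smallest p were named for each context, and their adjusted p-values come from the test that chose them. A permutation p of the same values is given beside them, which is no independent support. CpG 2557 was the higher one in aged rats, from 0 over 0.0178 to 0.0882 against 0 over 0.00424 to 0.0286 in young rats (permutation p = 0.0298, adjusted p = 0.685). CpG 470 was the lower one, from 0 over 0.00618 to 0.0741 in aged and 0 over 0.0430 to 0.2 in young rats (permutation p = 0.00166, adjusted p = 0.707), and CpG 664, the third, had a permutation p of 0.00932 and an adjusted p of 0.864. The groups overlapped at all 3 sites. In series A, CpG 2557 had 0.0224 in aged and 0.0217 in young rats, and in series B 0.0342 and 0.00952.

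CHG 802 was lower in aged rats, from 0 over 0.0237 to 0.0893 against 0.0303 over 0.0478 to 0.0851 in young rats (permutation p = 0.0284, adjusted p = 0.641). CHG 2504, described above, came next, and CHG 2014 had 0.0250 ± 0.0194 (SD, n = 20) in aged and 0.0430 ± 0.0239 (n = 10) in young rats. In series A, CHG 2014 had 0.0214 in aged and 0.0211 in young rats, and in series B 0.0323 and 0.0656. Among CHH sites, CHH 835 was the higher one in aged rats, with 0.0122 ± 0.00737 (n = 20) against 0.00418 ± 0.00452 (n = 10), a permutation p of 0.00276 and an adjusted p of 0.6. Its direction was the same in series A (0.0131 and 0.00472) and B (0.0120 and 0.00325). CHH 854 had 0.0137 ± 0.0102 in aged and 0.00571 ± 0.00529 in young rats, and CHH 755 ran the other way with 0.0237 ± 0.0150 and 0.0422 ± 0.0149. The group means of these sites, CHG 2504 aside, lay below 0.1, the ratio under which the study set non-CG sites aside.

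Among aged rats, AI rats were compared with AU rats to ask whether the segment goes with impaired set shifting. The CpG means of the 9 AI rats ran from 0.0378 over a median of 0.0574 to 0.0951 and those of the 11 AU rats from 0.0266 over 0.0487 to 0.206. For CHG the AI rats ran from 0.0350 over 0.0531 to 0.0782 and the AU rats from 0.0302 over 0.0452 to 0.144. For CHH they ran from 0.0277 over 0.0359 to 0.0647 and from 0.0181 over 0.0324 to 0.128. All 9 AI rats lay within the AU range in each context. The AI rats had the higher median and the lower mean, and the highest AU rat, at 0.206 for CpG, was a rat of series B with under 100 CpG member sites.

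The mean difference, AI minus AU, was -0.00392 for CpG (SE 0.0171, 95% interval -0.0395 to 0.0316, limma adjusted p = 0.996), with 0 of 4538 bins called (0%). At an unadjusted limma p under 0.05, 241 of these bins passed. It was -0.000806 for CHG (SE 0.0109, interval -0.0235 to 0.0219, limma adjusted p = 1), with 7 of 13981 bins called (0.0501%), and -0.00285 for CHH (SE 0.0101, interval -0.0240 to 0.0183, limma adjusted p = 0.985), with 1 of 22284 bins called (0.00449%). The sign was not stable. Without the AI and the AU rat that had under 100 CpG member sites the differences were 0.00597, 0.00500 and 0.00220, with limma adjusted p-values between 0.930 and 0.986. Within series A the CpG mean was 0.0471 in 5 AI and 0.0408 in 6 AU rats, and within series B 0.0840 in 4 AI and 0.110 in 4 AU rats. The AU mean of series B includes the rat at 0.206. The other AU rats there read 0.0584, 0.0777 and, in the calls for age, 0.0968. The direction in series B without the rat at 0.206 was not tested. Series C held no AI rat.

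Single sites gave 1 of 118 CpG members past the unadjusted threshold in the test of every site, where 4.14% of all CpGs were, 1 of 116 CHG members, where 1.26% were, and 8 of 734 CHH members (1.09%), where 0.954% were. Of the 8 CHH sites, 3 were hypermethylated and 5 hypomethylated in AI rats, against 0.383% and 0.571% of all CHH sites. None passed after adjustment over all sites tested. The share lay below the background for CpG and close to it for CHG and CHH. Without series B it was above the background for non-CG sites, with 6 of 116 CHG members (5.17%), where 1.32% of all CHG sites passed, and 30 of 733 CHH members (4.09%, 26 higher and 4 lower in AI rats), where 1% of all CHH sites passed, and none of them passed after adjustment.

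The sites with the smallest p were again low. CpG 2074 had 0.0121 ± 0.00712 (SD, n = 9) in AI and 0.00327 ± 0.00599 (n = 11) in AU rats, with an exact permutation p of 0.0124 and an adjusted p of 0.996. CpG 317 had 0.0193 ± 0.0272 (n = 7) and 0.0587 ± 0.0496 (n = 10), and CpG 664 had 0.0169 ± 0.0180 (n = 8) and 0.00385 ± 0.0122 (n = 10). CHG 1864 was higher in AI rats, from 0.0248 over 0.0625 to 0.1 against 0 over 0.0282 to 0.0870 in AU rats (exact permutation p = 0.00942, adjusted p = 0.638). Its AI mean was above the AU mean in series A (0.0590 and 0.0220) and in series B (0.0687 and 0.0331). CHG 2661 had 0.0381 ± 0.0264 in AI and 0.0166 ± 0.0153 in AU rats, and CHG 2521 had 0.0519 ± 0.0237 and 0.0292 ± 0.0273. At CHG 2521 the AI and AU means were 0.0542 and 0.0171 in series A, and close, 0.0492 and 0.0463, in series B.

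CHH 199, the CHH member with the smallest p, had 0.176 ± 0.0631 (SD, n = 6) in AI and 0.0715 ± 0.0403 (n = 8) in AU rats. The AI rats ran from 0.125 over 0.156 to 0.3 and the AU rats from 0 over 0.0805 to 0.118, so that the groups did not overlap in the 14 of 20 rats with a value. The exact permutation p was 0.000666, the smallest that 6 against 8 rats can give, and the adjusted p over all CHH sites was 0.597. Of these rats, 11 belonged to series A. Of the other named sites, CHH 844 had 0.00336 ± 0.00357 (n = 9) in AI against 0.0107 ± 0.00865 (n = 11) in AU rats, and CHH 2522 had 0.0499 ± 0.0264 against 0.0229 ± 0.0221.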

How the data were processed

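Genomic DNA of the mPFC of 30 rats was bisulfite converted and sequenced. The authors trimmed reads with Trimmomatic, filtered reads with unconverted bases, aligned to rn5 with BSMAP and called ratios with cscall in DMAP2 (versions not given in the sources used here). The filter on unconverted bases can lower true non-CG ratios. The deposited values are fractions (methylated reads over reads, 0 to 1) per rat and site, not scaled between rats; a rat needs 5 reads, and sites with under 3 rats in a group were not tested. Beyond this the depth per rat and site is unknown, so no count model or other coverage minimum was tried. All 150 columns with a rat's values were assigned to a rat, and the authors' mean and SD columns were not used.

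Members were all chrM sites at 1 to 2740. Sites were compared with Welch's test (2-sided) without the study's filter on ratios over 0.1 for non-CG sites, and adjusted by Benjamini-Hochberg over all sites of the context. Sites with no spread in both groups were not tested. Named sites also got a 2-sided permutation p, exact for AI against AU and with 100000 resamples for age, added after the data were seen. For the segment mean, each ratio was taken relative to its site's mean over the rats, averaged per rat over bins of 2740 bases with at least 5 sites, and fitted with limma (variance trend), adjusted over all bins. The segment and the rest were compared with a sign-flip permutation test (100000 resamples, 2-sided), adjusted over 3 contexts. Named sites were, per context, the 5 with the highest mean (values in at least 15 rats) and, per comparison, the 3 with the smallest p. The members and lists were chosen with earlier results of these data known. Alternatives were other summaries of the sites, other minimum numbers of rats, ratio filters, limma per site, covariates and leaving out each number series. The scripts were tested on simulated data. Each rat is 1 library. Python 3.11.15 (scipy 1.17.1) and R 4.3.3 with limma 3.58.1 were used.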

Additional observations from a re-analysis of the deposited data

Results flagged for a closer look

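In groups of 4 to 10 rats, a rat far from the others was looked for in the segment means, the number of sites and the named sites. Of 51 groups tested, 6 had one. The threshold gives about 1 in 20 for independent groups of normally distributed values. The ratios are bounded at 0 and the groups share rats, so the 6 are not read as an excess. Among young rats, the highest rat read 0.125 at CpG 664, where the next read 0.0526, and 0.470 at CHG 695, where the next read 0.313. Among AI rats, the highest rat read 0.0769 at CpG 317 (next 0.0204) and 0.3 at CHH 199 (next 0.179), the site named for its difference between AI and AU rats. The CpG mean of the segment minus that of the rest of the mitochondrial genome was -0.00860 in 1 young rat, where the next was -0.0334 and the young mean -0.0424. In the AI rats the lowest number of CpG member sites was 97, where the next was 108.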

How the results depend on the processing

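The aged minus young difference of the segment mean kept its sign under all 33 alternatives, between -0.0270 and -0.000639, with limma adjusted p-values from 0.692 to 1. The AI minus AU difference changed sign in 7 of 36: without series B it was 0.00424 for CpG, 0.00352 for CHG and 0.00405 for CHH, without the rats under 100 CpG member sites 0.00597, 0.00500 and 0.00220, and with the number of sites as a covariate 0.000704 for CHG, with limma adjusted p-values from 0.897 to 1 over all 36. The segment minus rest difference held in 14 of 15, the exception being the CHH median over sites at -0.00455. Counts of members past the unadjusted threshold moved by more than 1.5 times in 27 of 56 settings, and no member passed after adjustment in any. Each count is followed by its share of the members tested and, after a slash, the share of all sites of that context that passed. For age and CpG, 7 passed without series B (5.93/6.68%) and 4 without the rats under 100 sites (3.39/6.32%). For age and CHG, 6 (5.17/2.75%) and 4 (3.45/3.20%) passed in these, 1 of the 20 members with a mean over 0.1 (5/8.99%), 8 with limma (6.90/3.69%) and 9 with limma and series (7.76/5.17%). For age and CHH, 14 passed without series A (2.02/0.874%), 36 without series B (4.86/2.18%), 1 of the 109 members with a mean over 0.1 (0.917/8.82%), 6 of the 254 over 0.05 (2.36/5.83%), 64 with limma (8.63/3.37%) and 58 with limma and series (7.95/5.33%). For AI and AU and CpG, 5 passed without series B (4.24/4.19%), 2 without series C (1.69/4.15%), 0 with limma (0/5.22%) and 0 with limma and series (0/5.61%). For AI and AU and CHG, 2 passed without series A (2.04/0.829%), 6 without series B (5.17/1.32%), 3 without the rats under 100 sites (2.59/1.26%), 0 of the 18 members with a mean over 0.1 (0/6.24%), 3 with limma (2.59/2.52%) and 6 with limma and series (5.22/2.60%). For AI and AU and CHH, 30 passed without series B (4.09/1%), 2 of the 87 members with a mean over 0.1 (2.30/6.10%), 2 of the 187 over 0.05 (1.07/3.18%) and 25 with limma and series (3.46/2.08%). The causes were not tested. No paired analysis was possible because the replicate numbers only follow the order of the samples. Leaving out each rat in turn was not run. The full groups hold 9 rats or more, but named sites and number series held fewer, such as 3 young rats in series B. How far a single rat moves these values was not tested. Depth per rat and site beyond the minimum of 5 reads is unknown and limits every ratio.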

Other observations

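The 20 aged rats appear in both sets of calls, and their ratios at the same site were not always the same. Of 118 CpG members in both sets, 62 had equal ratios in every rat (within 1e-06), as had 58 of 116 CHG and 453 of 743 CHH members. Over single values, 72.7% of 2275 CpG, 72.4% of 2211 CHG and 82.1% of 13929 CHH ratios were equal. Where CpG ratios differed, the median difference was 0.00703 and the largest 0.123. The means in the comparison of AI with AU rats come from the calls for AI and AU. The figures, and the values of AI and AU rats given before that comparison, come from the calls for age. With the ratios of the same rats in the calls for age the CpG difference between AI and AU rats was -0.00325. The difference between the sets was not traced to a step.

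The share of member sites that read exactly 0 in a rat ranged from 6.78% to 28.8% for CpG, from 7.76% to 29.8% for CHG and from 18.9% to 37.6% for CHH. The share over 0.1 ranged from 8.47% to 62.8% for CpG and from 2.15% to 45.9% for CHH.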
